A study of Homo sapiens with 6 samples.

Results

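CDK1, CDK2, CDK4 and CDK6, the cyclin-dependent kinases (CDKs) that carry cells through the cycle, were examined together with the CDC25 phosphatases, the WEE family kinases WEE1 and PKMYT1 and the CDK-binding subunit CKS1B in extrahepatic cholangiocarcinoma (ECCA) cells with and without HOXA5 overexpression. Members were taken as all array probes that the platform table, with older synonyms updated, assigns to 1 of these 10 symbols and to no other gene. This gave 16 of the 24740 probes with 1 symbol, for 10 of the 18336 genes so named. TFK-1, an established human ECCA cell line, was used for all 6 samples, which the labels divide into 3 normal control samples and 3 samples overexpressing HOXA5, a homeobox transcription factor. Lentivirus (MOI 20, 24 h) and then puromycin at 1 μg/ml served to obtain stable lines, per the methods. The same settings are listed for all 6 samples. The methods describe a Flag-tagged HOXA5 construct and matched negative control viruses. For its expression comparison in TFK-1, which its text calls RNA-seq, the study names the control line LV-HOXA5-NC, while the array labels say only normal control. The promoter that drove HOXA5 and whether the lines were pools or clones are not stated. The methods speak in general of separate experiments, but nothing says for the arrays whether replicates were grown as separate cultures, so p-values describe the spread among these arrays alone, and that spread may be technical. Each sample was read on 1 Human OneArray slide in 1 colour.

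A CDK is active only when bound to a cyclin. CDK4 and CDK6 act with D-type cyclins in G1, CDK2 with cyclins E and A at the start of and during DNA replication, and CDK1 with cyclins A and B at mitosis. WEE1 and PKMYT1 (also known as MYT1) hold CDK1 inactive, and WEE1 also CDK2, by phosphorylating residues next to the ATP-binding site. CDC25 phosphatases remove these phosphates. CKS1B docks CDK complexes onto phosphorylated substrates and helps the SKP2 ubiquitin ligase to recognise p27. Many of these genes are transcribed in late G1, S or G2 and are silent in resting cells, through E2F factors or through CCAAT boxes and the cell cycle genes homology region (CHR).

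The HOXA5 probe PH_hs_0035417 had raw intensities of 110, 118 and 49 in the control replicates 1, 2 and 3 and of 585, 502 and 312 in the HOXA5 replicates. All 3 HOXA5 arrays were above all 3 control arrays, by 1.94 ± 0.12 (SE) on the log2 scale (adjusted p = 0.000766, limma). The other HOXA5 probe, PH_hs_0002929, gave -0.34 ± 0.07 (adjusted p = 0.0253, limma). Array medians of raw intensity ran from 126 to 180 in control and from 95 to 177 in HOXA5 samples, HOXA5 replicate 3 being lowest. Of the 9 biliary epithelial markers listed, 7 had a probe: KRT19, EPCAM, CDH1, SOX9 and CLDN4 were well above the dim range on every array, whereas KRT7 and KRT8 lay near its edge, at raw intensities of 55 to 185 and 103 to 281. Of these 7 markers, 4 (KRT19, CDH1, SOX9 and CLDN4) were higher in HOXA5 cells and none was lower, where 13.1% of all genes were higher and 10.96% lower. The part of these 7 markers in the results was not tested. Of 5 fibroblast markers, 4 were dim on all 6 arrays, and so were 2 of 3 leukocyte markers. The others, COL1A1 and CD68, were dim on no array, at raw intensities of 684 to 1491 and 176 to 567. None of 4 endothelial markers was dim on every array, at raw intensities of 8 to 370, and none passed the test. PECAM1 and KDR were lower on all HOXA5 than on all control arrays (-0.55, adjusted p = 0.0655, and -0.24, adjusted p = 0.254, limma). Such an order of the groups was seen in 20.4% of all genes. However, PECAM1 was above the dim range on only 2 control arrays and 1 HOXA5 array, and KDR on 1 and 0. Of 5 hepatocyte markers, ALB and CYP3A4 were dim on all 6 arrays and APOA1 was higher in HOXA5 cells (0.89 ± 0.19, adjusted p = 0.0279). APOB and TTR were above the dim range on all 3 control arrays and on 2 and 1 HOXA5 arrays, and did not pass. The part of these lists in the results was not tested.

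The 10 genes fell into 7 that were lower in HOXA5 cells and 3 that did not pass the test, with none higher. CDC25A, the phosphatase that acts from G1 into mitosis, had the largest called fall, to 5.14-fold below control. PKMYT1, CDC25C, CDK1 and CKS1B were lower by 2.01 to 2.49-fold, and WEE1 and CDK2 by 1.60 and 1.53-fold. CDK4, CDK6 and CDC25B did not pass. A gene was called at an adjusted p under 0.05 in limma, Benjamini-Hochberg over all 31741 probes, and a gene with several probes was read from the brightest. At this threshold 10.96% of all 18336 genes were lower and 13.1% were higher, against 7 and 0 of the 10. With a fall of at least 2-fold required as well, 5 of the 10 were called, where 2.39% of all genes were. The median log2 fold change of the 10 was -1.05, and that of all genes -0.01. Of all genes, 4122 were dim on all 6 arrays, against 0 of the 10, so these shares compare genes of unlike brightness. Without any scaling between arrays only CDC25A kept its call, although the log2 fold changes of all 10 genes were then more negative, from -0.49 for CDC25B to -2.48 for CDC25A. RNA came from whole cultures, so fewer cells in a phase of the cycle and less RNA per cell cannot be told apart.

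**Figure D1:**
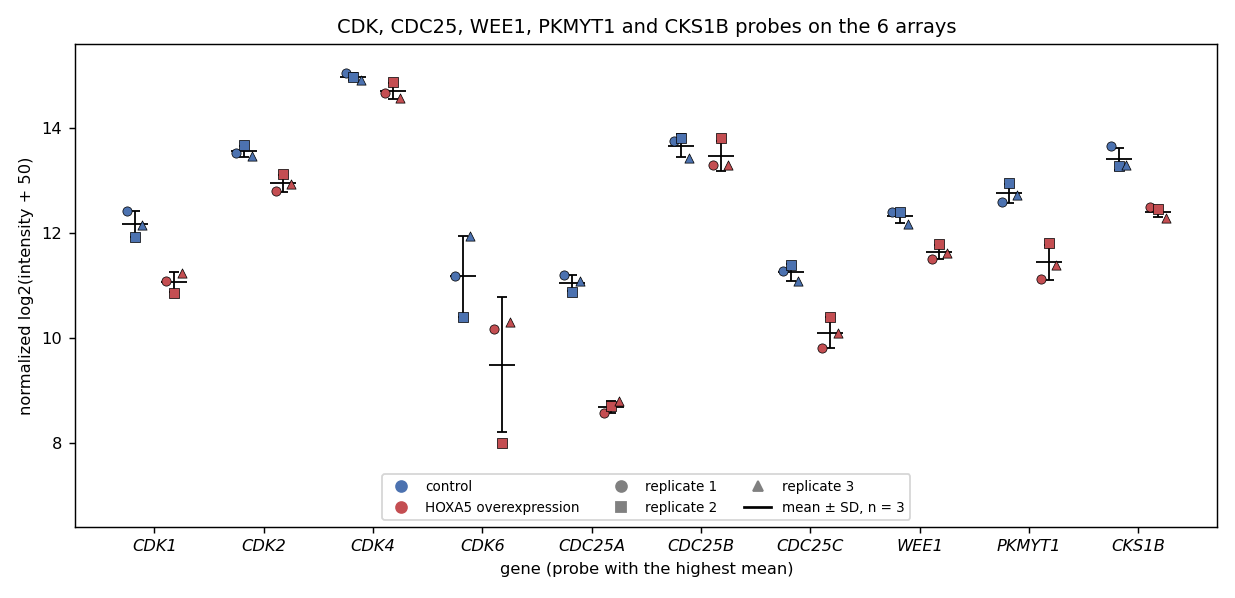
Normalized log2(intensity + 50) of the 10 genes on the 3 control arrays (blue) and the 3 HOXA5 arrays (red), with replicate number shown by the marker and black bars giving mean ± SD (n = 3 per group). All HOXA5 arrays lie below all control arrays for every gene except CDC25B, and CDK6 has the widest spread.

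Promoter sequences are shown because the 7 called genes moved in the same direction. RefSeq windows of 300 bases (250 before and 50 after an annotated start, GRCh38.p14) matched 7 of the 10 genes, in 15 windows (CDK2, WEE1 and PKMYT1 were not used here), and were searched on both strands for short motifs. These were the E-box CACGTG that MYC and its partners bind, the CCAAT box (CCAAT), the CHR (TTTGAA or TTCGAA), letters bound by E2F factors (TTTGGCGC, TTTGCCGC, TTTCGCGC or TTTCCCGC) and TAATTA, a homeodomain core. Within a window, no match overlapped another. Windows of 1 gene can overlap, so 31 matches stood at 28 distinct places. Positions count from the start, so that -1 is the base before it, and give the first base of the match. Capitals mark the matches in the windows of CDC25A, which fell most, CDK1 and CKS1B, which also fell, and CDK4, which did not pass.
CDC25A, chr3:48188368-48188667, minus strand: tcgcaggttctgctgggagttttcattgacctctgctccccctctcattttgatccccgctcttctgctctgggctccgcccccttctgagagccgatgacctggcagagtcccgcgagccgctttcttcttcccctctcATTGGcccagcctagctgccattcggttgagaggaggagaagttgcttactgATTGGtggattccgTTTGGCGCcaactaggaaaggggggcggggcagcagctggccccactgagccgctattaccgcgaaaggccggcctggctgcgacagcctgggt
CDK1, chr10:60778228-60778527, plus strand: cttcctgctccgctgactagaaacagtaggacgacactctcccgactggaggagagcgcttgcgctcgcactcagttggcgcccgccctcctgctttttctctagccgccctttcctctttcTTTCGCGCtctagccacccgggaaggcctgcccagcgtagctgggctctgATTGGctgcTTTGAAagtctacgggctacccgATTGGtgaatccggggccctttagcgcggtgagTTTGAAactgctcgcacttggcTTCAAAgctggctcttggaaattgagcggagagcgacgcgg
CKS1B, chr1:154974431-154974730, plus strand: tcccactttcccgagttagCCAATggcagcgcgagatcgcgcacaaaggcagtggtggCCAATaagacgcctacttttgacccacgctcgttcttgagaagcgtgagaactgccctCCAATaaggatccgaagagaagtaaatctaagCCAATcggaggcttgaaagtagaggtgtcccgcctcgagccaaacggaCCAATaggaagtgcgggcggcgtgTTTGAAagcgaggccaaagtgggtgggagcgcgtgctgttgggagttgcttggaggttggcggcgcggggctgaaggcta
CDK4, chr12:57752261-57752560, minus strand: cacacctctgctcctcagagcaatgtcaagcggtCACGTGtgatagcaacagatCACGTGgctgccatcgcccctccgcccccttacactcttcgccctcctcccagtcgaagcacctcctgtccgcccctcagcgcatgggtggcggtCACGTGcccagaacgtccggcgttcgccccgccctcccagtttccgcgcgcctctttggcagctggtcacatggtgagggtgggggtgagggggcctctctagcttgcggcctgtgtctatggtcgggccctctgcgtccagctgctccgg

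In the CDC25A window, CCAAT boxes on the other strand (ATTGG) stood at -110 and -58 and the E2F letters TTTGGCGC at -44. The CDK1 window shown, 1 of 2 for this gene, held TTTCGCGC at -128, ATTGG at -78 and -46, and CHR letters at -69, -13 and 10. The other CDK1 window, chr10:60778081-60778380, held fewer matches: TTTGAA at -161, CCAAT at -150 and the same TTTCGCGC, there at 20. CKS1B carried 5 CCAAT boxes, from -231 to -54, followed by TTTGAA at -30. CDK4 had neither, but carried the E-box at -216, -196 and -101. Across all 35116 RefSeq windows, 34.6% held CCAAT, 16.4% the CHR letters, 3.31% the E2F letters, 7.26% the E-box and 4.84% TAATTA. The CCAAT box occurred in 8 of the 15 member windows (CDC25A, CDC25B, CDC25C, CDK1 and CKS1B), and the CHR letters in 6 of 15 (CDC25B, CDC25C, CDK1 and CKS1B). The E-box was in 2 windows (CDK4 and CDK6), the E2F letters in 3 (1 of CDC25A and 2 of CDK1, the latter sharing the same bases), and TAATTA in 0 of the 15. CDC25B, which did not pass the test, and CDC25C, which fell, thus both had CCAAT and CHR letters. A match is a description of letters and is neither a site nor a cause.

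CDK1, the kinase that drives entry into mitosis, was lower after HOXA5 overexpression. Its normalized log2 levels were 12.41, 11.92 and 12.16 in control cells (replicates 1, 2 and 3, the order used throughout) and 11.09, 10.86 and 11.23 in HOXA5 cells. Every HOXA5 array lay below every control array. The group means were 12.16 ± 0.25 and 11.06 ± 0.19 (SD, n = 3), a log2 fold change of -1.10 ± 0.16 (SE, 95% interval -1.50 to -0.71, adjusted p = 0.00744). The other CDK1 probe, PH_hs_0045691, had a raw intensity of at most 9 and was dim on all 6 arrays, so it says nothing of CDK1. Dim here means the second of the 2 flag values in the deposited table, the other of which starts at raw intensities of 58 to 67.

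CDK2, which acts with cyclins E and A through S phase, was also lower. It was at 13.53, 13.67 and 13.46 in control cells and at 12.79, 13.12 and 12.93 in HOXA5 cells. The groups did not overlap, and HOXA5 replicate 2 was nearest to the controls. The change was -0.61 ± 0.11 (adjusted p = 0.0142). It was no longer called without control replicate 1 (adjusted p = 0.0576) or control replicate 2 (adjusted p = 0.0510), at log2 fold changes within -0.70 to -0.54 over all single arrays left out.

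CDK4 and CDK6, the partners of D-type cyclins, did not pass. The CDK4 probe PH_hs_0005210 had raw intensities of 37604, 38409 and 28652 in control and 27101, 30305 and 17443 in HOXA5 cells, none of them saturated. On the normalized scale these were 15.05, 14.97 and 14.92 against 14.66, 14.87 and 14.57. The groups stood apart by a narrow margin. The log2 fold change was -0.28 ± 0.09 (95% interval -0.52 to -0.05, adjusted p = 0.0952), and without HOXA5 replicate 2 it was -0.37 and passed (adjusted p = 0.0207). The second CDK4 probe, PH_hs_0035491, had the same sign with overlapping groups (-0.39 ± 0.18, adjusted p = 0.196), and it too passed without HOXA5 replicate 2 (-0.58, adjusted p = 0.0180).

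CDK6 was the most variable of the 10 genes. Its raw intensities were 2574, 1508 and 3549 in control cells and 1268, 238 and 865 in HOXA5 cells. Normalized, this was 11.18, 10.40 and 11.94 against 10.16, 8.0 and 10.30. All HOXA5 arrays lay below all control arrays. Replicate 2 was the lowest of each group, and in the HOXA5 group it was far below the others. The fitted change, -1.69 ± 0.74, was the second largest of the 10 and did not pass (95% interval -3.52 to 0.15, adjusted p = 0.179). Without HOXA5 replicate 2 it was -0.95 (adjusted p = 0.200). The other CDK6 probe, PH_hs_0002992, was dim on all 6 arrays.

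Of the 3 CDC25 phosphatases, 2 fell. CDC25A, which removes the inhibitory phosphates from CDK2 and CDK1, was at raw intensities of 2578, 2131 and 1893 in control cells and 385, 415 and 267 in HOXA5 cells. Normalized levels were 11.19, 10.88 and 11.08 against 8.56, 8.71 and 8.79. The gap between the groups was far wider than the spread inside either. CDC25A changed by -2.36 ± 0.11 (95% interval -2.62 to -2.10, adjusted p = 0.000406, limma), and it passed under all 16 alternative settings tried. Its fainter probe PH_hs_0000223 also fell, from raw intensities of 356, 374 and 197 to 111, 169 and 43, with HOXA5 replicate 3 dim. This probe gave a smaller change, -1.13 ± 0.19 (adjusted p = 0.0120), which lost its call without scaling (-1.23, adjusted p = 0.175), on the authors' normalized values (-1.19, adjusted p = 0.0894) and without control replicate 1 (-1.10, adjusted p = 0.0576).

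CDC25C, which acts on CDK1 at the entry into mitosis, was also lower. Control arrays gave 11.27, 11.39 and 11.08 and HOXA5 arrays 9.80, 10.39 and 10.09. The groups did not overlap, and HOXA5 replicate 2 was the highest of its group. The log2 fold change was -1.15 ± 0.17 (95% interval -1.57 to -0.73, adjusted p = 0.00798). CDC25B, which activates CDK1 at the centrosome before mitosis, gave 13.76, 13.81 and 13.42 against 13.29, 13.80 and 13.30. HOXA5 replicate 2 reached the control level, so that the groups overlapped. Its change was -0.20 ± 0.18, with a 95% interval of -0.65 to 0.25 and an adjusted p of 0.515.

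Both inhibitory kinases fell. WEE1, a nuclear tyrosine kinase, was at 12.39, 12.39 and 12.17 in control cells and 11.51, 11.78 and 11.62 in HOXA5 cells. PKMYT1, bound to membranes of the endoplasmic reticulum and Golgi, was at 12.58, 12.95 and 12.73 and at 11.13, 11.80 and 11.38. No array of one group reached the other group for either gene. WEE1 changed by -0.68 ± 0.10 (adjusted p = 0.00796) and PKMYT1 by -1.31 ± 0.19 (adjusted p = 0.00822).

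CKS1B had 3 probes, which differed in size and call. On the brightest, PH_hs_0049591, levels were 13.66, 13.27 and 13.30 in control cells and 12.49, 12.45 and 12.28 in HOXA5 cells. The HOXA5 arrays were tightly grouped below the controls, and the change was -1.004 ± 0.13 (95% interval -1.32 to -0.69, adjusted p = 0.00513). The faintest, PH_hs_0043604, had raw intensities of 312, 294 and 370 against 99, 56 and 62, dim on HOXA5 replicates 2 and 3, and changed by -1.51 ± 0.26 (adjusted p = 0.0126). The probe PH_hs_0029917, at 12.73, 12.43 and 13.21 against 12.79, 11.68 and 12.83, overlapped between groups. Its change was -0.36 ± 0.37 (adjusted p = 0.581), and it turned to 0.01 (adjusted p = 0.976) without HOXA5 replicate 2. RefSeq lists 7 pseudogenes of CKS1B, and the probes' sequences were not used here, so signal shared with near-identical copies was not tested.

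Over all 16 probes, 9 were lower and none was higher, where 10.5% of all probes with 1 symbol were lower. Of the 7 that did not pass, 2 were the dim probes of CDK1 and CDK6. For 9 of the 10 genes, all HOXA5 arrays lay below all control arrays, which was so for 20.4% of all genes.

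**Figure D2:**
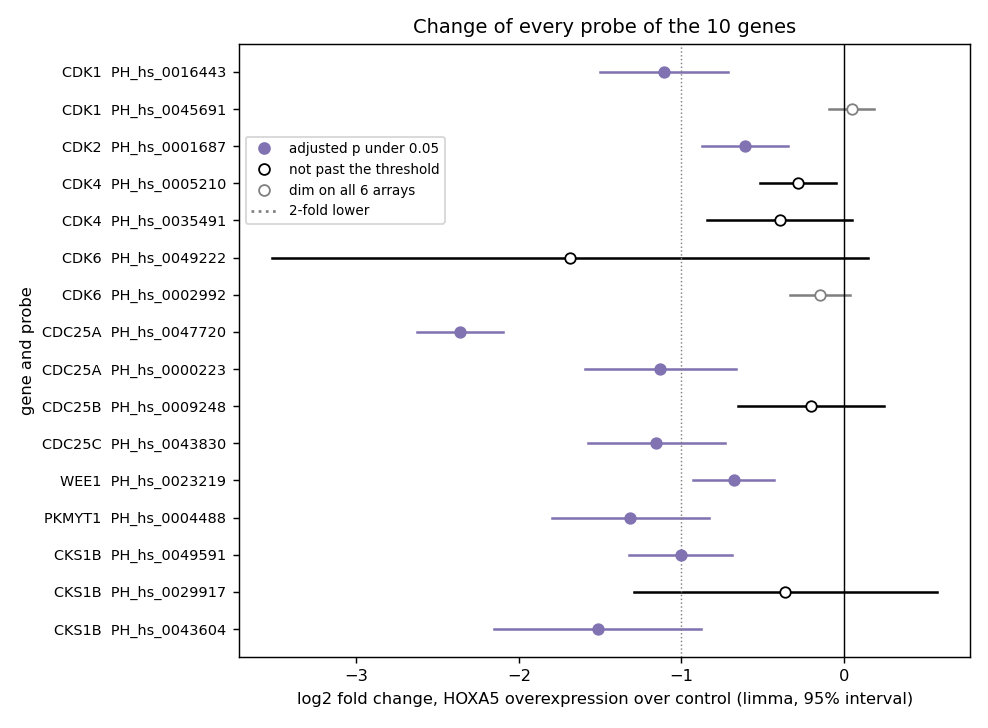
Log2 fold change of HOXA5 over control cells for all 16 probes, with 95% intervals from limma; filled points passed an adjusted p of 0.05, open points did not, and grey points were dim on all 6 arrays. CDC25A PH_hs_0047720 stands at -2.36 with a short interval, and CDK6 PH_hs_0049222 at -1.69 with an interval that reaches 0.15.

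Changes were then compared between related genes, array by array, as the difference of their normalized log2 values. In all, 10 pairs were compared by a two-sided exact permutation test over the 3 and 3 arrays, whose smallest possible p is 0.1 (0.167 after Benjamini-Hochberg over the 10 pairs), so no pair could pass 0.05. The difference between CDC25A and CDC25B did not overlap between the groups and shifted by -2.16 ± 0.24 (95% interval -2.82 to -1.49, exact p = 0.1), and that between CDC25A and CDC25C by -1.21 ± 0.21 (exact p = 0.1). The latter rests on the brighter CDC25A probe. With the fainter one, whose own change was -1.13, the difference from CDC25C overlapped between the groups and shifted by 0.02 ± 0.12 (95% interval -0.30 to 0.35, exact p = 0.8), and that from CDC25B by -0.93 ± 0.04 (exact p = 0.1), an alternative added after seeing the data. The difference between CDC25B and CDC25C shifted by 0.95 ± 0.09 (95% interval 0.69 to 1.21, exact p = 0.1). The difference between WEE1 and PKMYT1 shifted by 0.64 ± 0.17 (95% interval 0.17 to 1.11, exact p = 0.1). Among the kinases, that between CDK1 and CDK4 shifted by -0.82 ± 0.23 and that between CDK2 and CDK4 by -0.33 ± 0.10, both with an exact p of 0.1. For CDK1 and CDK2 the groups overlapped, at -0.50 ± 0.27 (95% interval -1.24 to 0.25, exact p = 0.3). CDK6 could not be placed against CDK1, CDK2 or CDK4, its interval against CDK1 running from -1.51 to 2.68. In 6 of the 10 pairs the groups did not overlap. The pairs share genes and arrays and so are not separate results, and the share among other gene pairs was not examined.

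Within the groups, the genes did not vary alike. CDK2, CDK4, CDC25B, CDC25C, WEE1 and PKMYT1 were all highest on replicate 2 of the HOXA5 group, by 0.14 to 0.37 above the group mean. How many of all genes were highest on that array was not examined, so this is not read as a trait of these genes. CDK6 ran the other way, at -0.77 and -1.49 on replicate 2 of the control and HOXA5 groups, and CDK1 was lower there as well, at -0.24 and -0.20. This shape, lowest on replicate 2 of both groups, was seen in 3110 of all 18336 genes. Over the 6 arrays, deviations from the group means correlated at r = 0.97 between CDK2 and CDC25C and at r = -0.97 between CDK6 and CDC25B. These 2 values are the highest and the lowest among all pairs of the genes described, picked for that reason. All such correlations are descriptions of 6 shared arrays, whose deviations sum to 0 in each group.

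**Figure D3:**
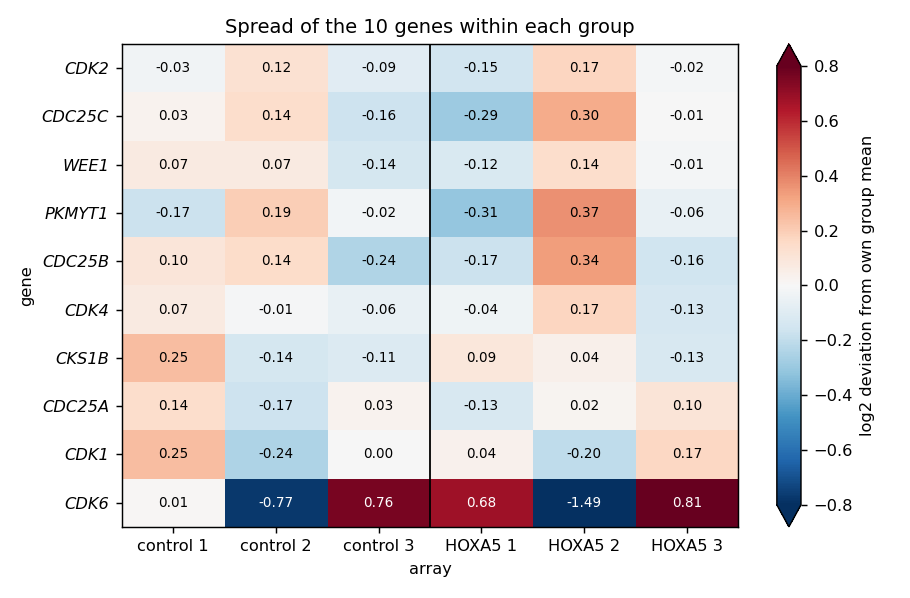
Deviation of each gene from its own group mean (log2) on the 6 arrays, red above and blue below the mean. HOXA5 replicate 2 is above the mean for PKMYT1 (0.37), CDC25B (0.34) and CDC25C (0.30) and far below it for CDK6 (-1.49).

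Genes whose level followed CDC25A most closely over the 6 arrays were ranked by Pearson's r among 10939 genes. DLGAP5, a mitotic spindle protein, was first (r = 0.9985). NDUFB8, a subunit of respiratory complex I, OXCT1, an enzyme of ketone body use, and SKA3, a kinetochore subunit, ranked 2, 4 and 5 (r from 0.9975 to 0.9978). The log2 fold changes of these 4 genes were -1.86, -0.82, -1.53 and -1.89. Of the other 9 genes described here, CDK1 was nearest (r = 0.967, rank 422) and CDC25B farthest (r = 0.43, rank 4152). With 6 arrays in 2 groups, r mostly follows the difference between the groups.

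The lists of related genes that follow are read against all genes, of which, as above, 10.96% were lower and 13.1% higher, with a median of -0.01. Cyclins, the activating subunits, had a median log2 fold change of -0.98 over 10 genes, of which 7 (70%) were lower and 1 (10%) was higher. CCNA2, the S phase and mitotic cyclin A, changed by -1.77 ± 0.09 (adjusted p = 0.000533), and the mitotic cyclins CCNB1 and CCNB2 by -1.66 ± 0.19 and -1.45 ± 0.10. CCND3, a G1 cyclin, changed by -0.75 ± 0.08. The only cyclin that was higher, CCNB3 (0.40 ± 0.08), is named after its value was seen, and lost its call under 9 of 16 alternatives.

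The CDK inhibitors did not move as a group. Of 8 measured, 3 (37.5%) were higher and 2 (25%) were lower, and the median was 0.68. CDKN1C (p57) rose by 2.36 ± 0.21 and CDKN1B (p27), the inhibitor that SKP2 with CKS1B targets for degradation, by 1.15 ± 0.13, together with CDKN2D (p19, 0.50, named after its value was seen). CDKN2A, whose products are p16 and ARF, changed by -0.86 ± 0.09 and CDKN3, a phosphatase that acts on CDKs, by -0.79 ± 0.08. CDKN1A (p21) stood at 0.85 ± 0.27 and did not pass (adjusted p = 0.0851). It is given, outside the rule for named genes, as the best known target of p53 in this family.

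Of 6 activating kinases and their partners, 2 (33.3%) were lower, with a median of -0.52. AURKA and PLK1, mitotic kinases that promote CDC25C activation and WEE1 turnover, changed by -1.58 ± 0.12 and -1.73 ± 0.18. BORA, which helps AURKA to activate PLK1, did not pass on its brighter probe (-0.65 ± 0.23, adjusted p = 0.111), whereas its other probe, PH_hs_0060571, did (-1.27 ± 0.14, adjusted p = 0.00371). MNAT1, a subunit of the CDK-activating kinase, did not pass at -0.38, nor did its partners CDK7 and CCNH at -0.09 and -0.08, which are named outside the rule to complete the complex. Among 11 checkpoint genes upstream of the CDC25 proteins, 3 (27.3%) were lower and none higher (median -0.15). These were CHEK1 (-1.25 ± 0.15), the kinase that marks CDC25A for destruction, ATRIP (-0.93 ± 0.13), the partner of ATR, and TOPBP1 (-0.96 ± 0.14), which activates ATR. ATM, a kinase that responds to DNA breaks, did not pass (0.38 ± 0.11, adjusted p = 0.0652), and its other probe stood at -0.04. Of the 7 14-3-3 proteins, which hold phosphorylated CDC25 proteins in the cytoplasm, 1 was lower, a share (14.3%) near that of all genes. This was YWHAE (-0.97 ± 0.18), whose call was lost under 6 of 16 alternatives. YWHAG (0.48 ± 0.13), YWHAQ (-0.63 ± 0.19) and YWHAZ (0.29 ± 0.10) did not pass, with adjusted p-values of 0.0507, 0.0788 and 0.104 in limma.

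Among 9 ubiquitin ligase genes that target cell cycle proteins, 4 (44.4%) were lower and none was higher, with a median of -0.17. SKP2, which works with CKS1B, changed by -0.97 ± 0.05, and CDC20, CCNF and FZR1 by -0.90 ± 0.10, -0.82 ± 0.08 and -0.78 ± 0.13. Of 11 genes of the phosphatases that oppose CDK1 and their regulators, 4 (36.4%) were lower (median -0.37). The falls were small, -0.65 ± 0.06 for PPP2R2D, -0.58 ± 0.07 for PPP2CA, -0.62 ± 0.09 for PPP1CC and -0.40 ± 0.07 for MASTL, and that of MASTL lost its call under 5 of 16 alternatives. Among the 3 pocket proteins that CDK4, CDK6 and CDK2 phosphorylate, RB1 (1 of 3, 33.3%) changed by -0.76 ± 0.12, while RBL1 and RBL2 did not pass.

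The other CDKs, most of which act in transcription or in neurons, had a median of -0.02 over 15 measured genes, of which 2 (13.3%) were lower and 3 (20%) higher, the share of lower genes being near that of all genes. CDK12 (-0.90 ± 0.13) and CDK8 (-0.39 ± 0.08) were lower, and CDK10 (0.76 ± 0.10), CDK9 (0.36 ± 0.08) and CDK19 (0.72 ± 0.17, named after its value was seen) were higher. Of these 5, CDK8, CDK9 and CDK19 lost their calls under 8 or 9 of 16 alternatives. CKS2, the paralog of CKS1B, was at -0.63 ± 0.28 and did not pass (adjusted p = 0.193), and WEE2, a WEE1 paralog of the egg, was dim on all 6 arrays.

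**Figure D4:**
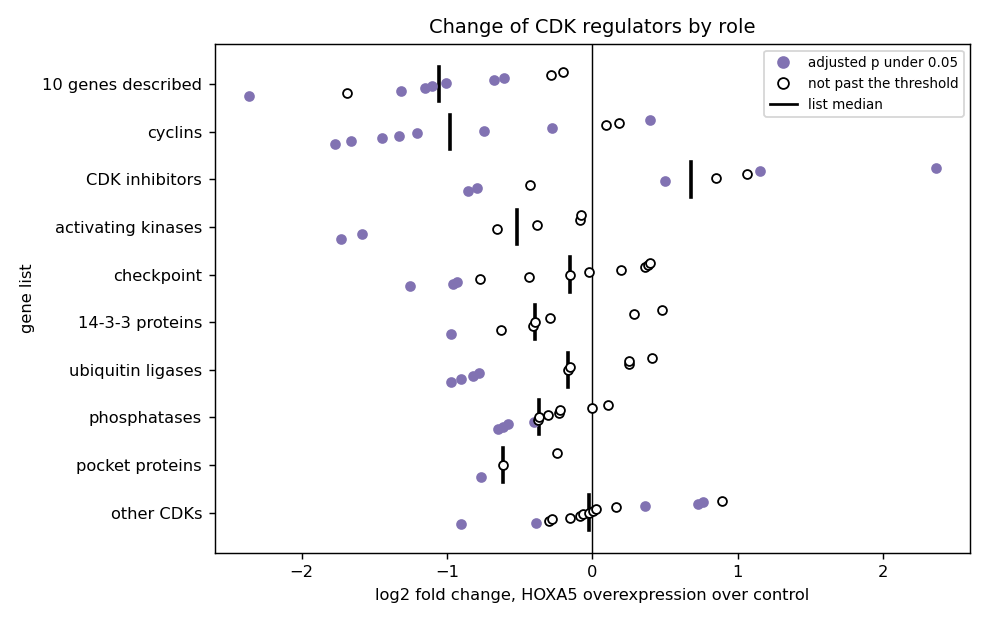
Log2 fold change of HOXA5 over control cells for the genes of each list, 1 point per gene (its brightest probe), filled where the adjusted p was under 0.05, with the list median as a black line. The median is -1.05 for the 10 genes described and -0.98 for the cyclins, while that of the other CDKs is -0.02 and that of the CDK inhibitors 0.68.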

How the data were processed

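Gene expression was profiled in 6 samples of TFK-1 cells, 3 per group, on 1-colour Human OneArray slides (Cy5-labelled amplified RNA, Agilent scanner). The authors deposited raw intensity on a linear scale, with some background already subtracted, together with detection p-values and 2 kinds of flag, 1 of each per probe and array. The deposited p-value was not used in any test. What the flags mean, and which software and background method were used, is not given in the sources used here. The authors' second table of intensity, made with GeneSpring per the methods, equalled raw intensity times 1 constant per array, and how the constants were set remains unknown. Number of arrays limits the precision.

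Values were log2(raw intensity + 50), quantile normalized between arrays. The fit used limma 3.58.1 in R 4.3.3 (lmFit, eBayes) on all 31741 probes, with no filter or covariate. P-values were two-sided and adjusted by Benjamini-Hochberg over all probes; a call is an adjusted p under 0.05, with a log2 fold change of at least 1 as the second threshold of the study's methods. Because of the added 50, fold changes of dim probes are understated. Of the probes, 24740 had 1 symbol in the platform table, 977 several and 6024 none, and 1948 symbols were updated through synonyms, none of them of a gene described here. Probes with a raw intensity of 65000 or more counted as saturated. The table columns were all assigned to samples. The fit was tested on simulated data.

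The genes described and the lists were chosen with earlier results of these data known. From each list, up to 4 genes were named by smallest p; genes named otherwise are marked. The gene ranked 3 by likeness to CDC25A is not reported here. Of the other probes of genes named from the lists, that of CDKN2A was dim on all arrays, those of CCNA2, SKP2 and CDK10 passed in the same direction as the probe used, and those of CDK12 (-0.48, adjusted p = 0.0685, limma) and MASTL did not pass. Of genes not called on the probe used, the other probe passed for BORA and did not for ATM (adjusted p = 0.953), YWHAZ (0.50, adjusted p = 0.194), MNAT1 (0.03, adjusted p = 0.936), RBL1 (-0.36, adjusted p = 0.160) and CDKN1A (0.44, adjusted p = 0.592). The alternatives were 3 other scalings, 2 other offsets, a filter on dim probes, a block on replicate number, another variance model, the methods' t-test, the mean of a gene's probes, and leaving out each array. For genes from the lists these were added after seeing the data.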

Additional observations from a re-analysis of the deposited data

How the results depend on the processing

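The 10 genes were never higher under any of the 16 alternatives. Counts of genes depended most on scaling. Without scaling between arrays, 243 genes were lower and 259 higher (main 2010 and 2399), 209 and 243 by at least 2-fold (main 438 and 703), and 1 of the 10 genes kept its call, also at 2-fold. The values then were -1.27 for CDK1 (adjusted p = 0.0505, limma), -0.85 for CDK2 (0.150), -1.29 for CDC25C (0.0819), -0.87 for WEE1 (0.146), -1.51 for PKMYT1 (0.0613) and -1.24 for CKS1B (0.0872), all more negative than with scaling; the cause was not tested. The authors' normalized values gave 1047 lower and 1062 higher genes, and the methods' t-test 1192 and 1589 after Benjamini-Hochberg adjustment. With the mean of a gene's probes, 3 of the 10 genes fell by at least 2-fold in place of 5. The CKS1B probe PH_hs_0043604 was not called by the methods' t-test (adjusted p = 0.0523 over all probes).

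Leaving out 1 array at a time gave 1073 to 2624 lower and 1387 to 2797 higher genes, 346 to 494 and 582 to 832 of them by at least 2-fold, 6 to 8 of the 10 genes lower, and 3 to 5 by at least 2-fold, the 3 without control replicate 1. The range was -0.70 to -0.54 for CDK2, -0.37 to -0.21 for CDK4 and -2.09 to -0.95 for CDK6. The CKS1B probe PH_hs_0029917 ranged from -0.56 to 0.014, and the latter was without HOXA5 replicate 2. The dim probes of CDK1 and CDK6 had no value under the filter on dim probes.

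Same-numbered arrays deviated together at r = -0.15, 0.64 and 0.73 for numbers 1, 2 and 3. The values for numbers 2 and 3 were the highest between any control and HOXA5 array, while control replicate 1 was closest to HOXA5 replicate 2 (r = 0.26). The main fit did not take the numbers as a pairing, and whether replicates were paired cannot be told from these values. With replicate number as a block, 8 of the 10 genes were lower, CDK6 being added (-1.69, adjusted p = 0.0273, limma). Of 30 called genes named from the lists, 6 kept their call without scaling and 20 on the authors' normalized values, and none changed direction under any alternative. Of genes named but not called, BORA passed under 3 of 16 alternatives, and YWHAG and YWHAQ under 4 each. CDKN1A and RBL1 passed under 2 each, ATM, YWHAZ and CKS2 under 1 each, and MNAT1 and RBL2 under 0. The number of arrays, 3 per group, and signal near background for the fainter CDC25A, CKS1B and HOXA5 probes limit what can be called.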
